A study of Mus musculus with 24 samples.

Results

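Egr1, Egr2, Egr3, Egr4, Nr4a1, Nr4a2, Nr4a3, Arc and Npas4 are genes whose transcription in neurons follows synaptic activity. They were taken from the count table by their gene symbols, which gave 9 genes of 43346 in the table, and all 9 passed the filter on low counts that left 21891 genes for testing. RNA of the cerebral cortex was sequenced from 24 mice in 4 groups of 6: control mice given lipopolysaccharide (LPS), control mice with no stimulus, mice labelled Abca7 given LPS, and mice labelled Abca7 with no stimulus. LPS is a cell wall component of Gram-negative bacteria that sets off innate immune signalling, and the study asked how Abca7, a lipid transporter gene, relates to inflammation in the brain. According to the series text the mice labelled Abca7 were heterozygous and the LPS was injected. The sources used here do not give its dose, route or interval before collection, the strain or the kind of Abca7 allele. LPS mice were 54 to 56 days old and unstimulated mice 55 to 58 days.

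An activity-regulated gene is switched on within minutes when calcium enters a neuron or a growth factor binds its receptor, because the transcription factors that start it, such as CREB and SRF, are already present and need only be phosphorylated or joined by a cofactor. EGR proteins are zinc finger transcription factors that bind GC-rich sites, and some of them recruit the repressors NAB1 and NAB2. NR4A proteins are orphan nuclear receptors whose activity is set mainly by how much of them is made. NPAS4 is a transcription factor of neurons that answers to calcium entry, and ARC is a protein of the synapse that moves AMPA-type glutamate receptors off the cell surface. In the cortex the steady level of these transcripts in an undisturbed animal is commonly read as a trace of recent neuronal activity.

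Promoter windows, from 250 bases before to 50 after the annotated start, were found in RefSeq (GRCm38.p6) for 6 members, Egr2, Egr4, Nr4a1, Nr4a2, Nr4a3 and Npas4. The windows of Egr2, the member with the largest fall, and of the whole Nr4a family, whose members fell by different amounts, are shown on the strand of the gene. Capitals mark the core of the cAMP response element, the CREB site (TGACG, or CGTCA on the opposite strand), and in Egr2 also the CArG box, the SRF site. The Egr2 window is chr10:67537619-67537918 on the plus strand and is 1 of 5 RefSeq windows of this gene, chosen because it holds both motifs, with its start 2394 bases inside the edge of the gene in the count table. The Nr4a1 window is chr15:101266596-101266895 on the plus strand, Nr4a2 is chr2:57123954-57124253 on the minus strand, and Nr4a3 is chr4:48045055-48045354 on the plus strand.
Egr2: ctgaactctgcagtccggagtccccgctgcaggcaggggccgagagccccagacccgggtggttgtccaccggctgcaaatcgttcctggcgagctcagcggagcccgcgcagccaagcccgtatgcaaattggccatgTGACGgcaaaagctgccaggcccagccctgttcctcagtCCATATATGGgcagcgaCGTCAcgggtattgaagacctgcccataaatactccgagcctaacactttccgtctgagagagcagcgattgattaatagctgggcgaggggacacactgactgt
Nr4a1: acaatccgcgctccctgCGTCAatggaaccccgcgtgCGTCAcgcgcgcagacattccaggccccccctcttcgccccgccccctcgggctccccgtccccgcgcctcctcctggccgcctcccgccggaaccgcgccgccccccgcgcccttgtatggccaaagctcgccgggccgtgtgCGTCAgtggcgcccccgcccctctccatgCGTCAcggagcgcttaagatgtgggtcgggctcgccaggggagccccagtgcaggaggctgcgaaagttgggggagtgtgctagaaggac
Nr4a2: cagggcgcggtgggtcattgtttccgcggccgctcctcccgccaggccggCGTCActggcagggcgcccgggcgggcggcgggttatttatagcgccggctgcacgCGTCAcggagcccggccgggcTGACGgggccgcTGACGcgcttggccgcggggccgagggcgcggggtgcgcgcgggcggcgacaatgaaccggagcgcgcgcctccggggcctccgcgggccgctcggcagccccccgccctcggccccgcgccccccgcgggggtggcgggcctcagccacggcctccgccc
Nr4a3: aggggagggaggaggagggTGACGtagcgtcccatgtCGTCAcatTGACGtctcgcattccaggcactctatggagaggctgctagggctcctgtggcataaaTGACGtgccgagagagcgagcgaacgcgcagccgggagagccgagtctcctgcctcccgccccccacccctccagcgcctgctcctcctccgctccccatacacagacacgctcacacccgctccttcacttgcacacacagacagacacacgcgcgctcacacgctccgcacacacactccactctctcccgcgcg

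The CREB core was present in at least 1 window of all 6 members, against 20.9% of 32544 mouse promoter windows of the same length, with both strands searched. Nr4a1, Nr4a2 and Nr4a3 each held 4 copies, a number reached by 0.234% of all windows, while Egr2, Egr4 and Npas4 held 2, a number reached by 5.04%. For Egr2 this is the window shown, and 3 of its 5 windows held the core. The complete palindrome TGACGTCA, which contains the core on both strands, was in none of the 6 and in 1.8% of all windows. A CArG box, CCATATATGG, lay 72 bases before the start in the Egr2 window shown, and 1.64% of all windows held such a box. The EGR site GCGNGGGCG was matched in the windows of Nr4a1 and Nr4a2, as in 5.6% of all windows, and the NR4A site AAAGGTCA in none, against 1.52%. The Nr4a2 window was 81.7% G and C, Nr4a1 72.3%, Nr4a3 64.7% and the Egr2 window 60.0%, where the median over all windows was 53.0%. The shares over all windows were not matched for G and C, so they are no test of enrichment. A match of letters is a description of the sequence and not a measured binding site.

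In GENCODE M21 all 9 genes are protein-coding and lie apart from other annotated genes. The annotation used for the counting is not stated, so the same could not be checked there. Sequence shared with other genes was at most 0.15% of 50-base words, in Nr4a3. Counts of a member in a library lay between 99, for Egr2, and 18499, for Arc. Library totals lay between 48149131 and 75741388 counts. Abca7 itself was not lower in the mice that carry its label. It averaged 29.4 ± 2.30 CPM (SD, n = 6; CPM is the count scaled by the TMM-adjusted library total) in labelled Abca7 LPS mice and 24.5 ± 2.66 CPM in control LPS mice (log2 difference 0.26 ± 0.07 SE, adjusted p = 0.267), and 32.1 ± 2.07 against 28.6 ± 2.22 CPM without LPS (0.17 ± 0.07, adjusted p = 0.606). Reads over the whole transcript cannot show the loss of a part of it, and each genotype comparison is therefore between labels. Labelled Abca7 LPS replicate 4 stood apart, with the weakest inflammatory response of the 12 LPS libraries.

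In control mice the first question was what LPS does to these genes. All 9 were lower in control LPS mice than in unstimulated control mice, with a median log2 fold change of -1.27 where the median of all genes was 0.01. By the same test (edgeR quasi-likelihood F test with Benjamini-Hochberg adjustment over 21891 genes, threshold 0.05) 17.3% of all genes were called in either direction and 7.92% as lower. The 6 LPS libraries lay wholly below the 6 unstimulated ones for 7 of the 9 members, an arrangement found in 3.69% of all genes tested. In tissue RNA of this kind, fewer cells of a type and less RNA per cell cannot be told apart.

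Of the Egr family, Egr2, known best for its part in Schwann cell myelination and hindbrain patterning, fell the most. Its level lay between 1.76 and 2.88 CPM (median 2.43) in control LPS mice and between 5.17 and 15.4 CPM (median 8.71) in unstimulated control mice. Every LPS library was below every unstimulated library, and the log2 fold change was -1.93 ± 0.25 (SE, n = 6 per group, adjusted p = 1.5e-06), or 26.3% of the unstimulated level. It ranked 29 of 21891 genes from the lowest fold change.

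Egr1, also called Zif268 and widely used to map active neurons, lay between 76.1 and 130.03 CPM (median 97.6) in control LPS mice and between 199.98 and 304 CPM (median 248) in unstimulated control mice. The groups did not overlap, and the log2 fold change was -1.33 ± 0.16 (adjusted p = 3.62e-07). Egr4, a family member made largely in the nervous system, lay between 9.68 and 15.1 CPM (median 12.5) in control LPS mice and between 23.2 and 39.4 CPM (median 29.5) in unstimulated control mice. These groups did not overlap either, with a change of -1.27 ± 0.14 (adjusted p = 8.46e-08). Egr3, needed for muscle spindle development, lay between 44.5 and 62.9 CPM (median 49.99) in control LPS mice and between 54.3 and 80.3 CPM (median 71.2) in unstimulated control mice. Its groups overlapped and its fall was the smallest of the 9, at -0.41 ± 0.10 (adjusted p = 0.00317). With the level of the choroid plexus gene Ttr in the model, Egr3 no longer passed the threshold in control mice (-0.29, adjusted p = 0.243). Ttr itself was higher in control LPS than in unstimulated control mice (log2 fold change 2.42 ± 0.74, adjusted p = 0.023). In control mice this model therefore cannot fully separate LPS from the Ttr level, and a call lost in it is hard to read.

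In the Nr4a family the fall was again uneven. Nr4a3 (NOR-1) lay between 12.9 and 19.8 CPM (median 15.01) in control LPS mice and between 26.8 and 63.6 CPM (median 37.1) in unstimulated control mice. The groups were separate, and the log2 fold change was -1.35 ± 0.16 (adjusted p = 3.23e-07). Nr4a1 (Nur77), a receptor also studied in T cell selection and macrophages, lay between 30.2 and 51.7 CPM (median 34.5) in control LPS mice and between 64.0 and 115 CPM (median 86.6) in unstimulated control mice. The lowest unstimulated library was above the highest LPS library, with a change of -1.20 ± 0.17 (adjusted p = 4.97e-06). Nr4a2 (Nurr1), needed for midbrain dopamine neurons and kept on in a subset of cortical neurons, lay between 25.1 and 39.0 CPM (median 27.8) in control LPS mice and between 38.8 and 45.0 CPM (median 42.6) in unstimulated control mice. Control LPS replicate 6, at 39.0 CPM, was the single LPS library that reached the unstimulated range, and the change was -0.51 ± 0.08 (adjusted p = 4.45e-05).

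Arc and Npas4, the members most closely tied to neurons, fell as well. Arc lay between 52.6 and 88.7 CPM (median 65.3) in control LPS mice and between 114 and 320.2 CPM (median 176) in unstimulated control mice. No LPS library reached the unstimulated range, and the log2 fold change was -1.51 ± 0.22 (adjusted p = 9.96e-06), or 35.1% of the unstimulated level. Npas4 lay between 4.58 and 11.2 CPM (median 5.63) in control LPS mice and between 11.6 and 23.9 CPM (median 14.5) in unstimulated control mice. The ranges came close without overlap, and the change was -1.17 ± 0.25 (adjusted p = 0.00102).

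**Figure D1:**
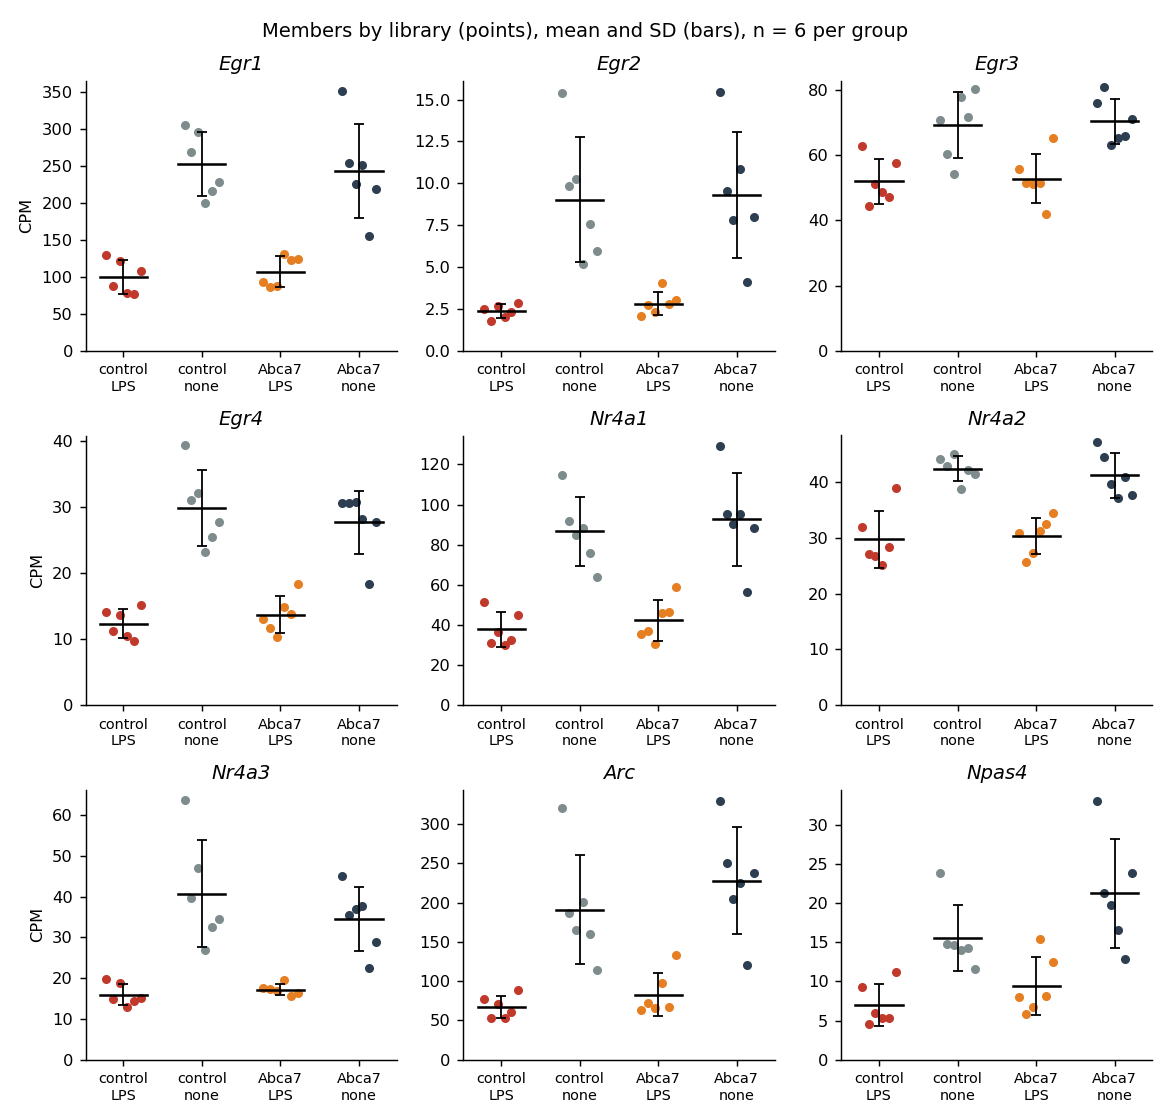
CPM (vertical axis, from 0) of each member in every library (points), with the group mean (line) and SD (bars) of 6 libraries, for control LPS, control without stimulus (none), labelled Abca7 LPS and labelled Abca7 without stimulus. LPS libraries sit low in all 9 panels, and the ranges of Egr3 and Nr4a2 come closest or overlap in control mice.

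The same comparison was made in the mice labelled Abca7, whose libraries are separate from those of the control mice. All 9 members fell again, with a median log2 fold change of -1.13, where 11.8% of all genes were called in either direction and 5.18% as lower. Groups did not overlap for Egr1, Egr2, Nr4a2 and Nr4a3, 4 of the 9, an arrangement found in 2.24% of all genes tested.

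Egr2 again fell the most. It lay between 2.10 and 4.04 CPM (median 2.74) in labelled Abca7 LPS mice and between 4.13 and 15.4 CPM (median 8.74) in unstimulated labelled Abca7 mice. The highest LPS library, replicate 4, was just below the lowest unstimulated library, replicate 5, and the change was -1.72 ± 0.25 (adjusted p = 1.09e-05). Egr1 lay between 85.5 and 131 CPM (median 108) in labelled Abca7 LPS mice and between 156 and 351 CPM (median 238) in unstimulated labelled Abca7 mice, without overlap and with a change of -1.18 ± 0.16 (adjusted p = 3.63e-06). Egr4 lay between 10.3 and 18.4 CPM (median 13.5) in labelled Abca7 LPS mice and between 18.4 and 30.8 CPM (median 29.4) in unstimulated labelled Abca7 mice, where the extremes touched, with a change of -1.02 ± 0.14 (adjusted p = 4.9e-06). Egr3, at 41.8 to 65.1 CPM (median 51.6) in labelled Abca7 LPS mice and 63.2 to 80.8 CPM (median 68.6) in unstimulated labelled Abca7 mice, overlapped in 1 LPS library and changed by -0.41 ± 0.10 (adjusted p = 0.0043).

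Nr4a1 lay between 30.4 and 58.7 CPM (median 41.5) in labelled Abca7 LPS mice and between 56.6 and 129 CPM (median 92.9) in unstimulated labelled Abca7 mice. The overlap came from LPS replicate 6 and unstimulated replicate 5, and the change was -1.13 ± 0.17 (adjusted p = 1.58e-05). Nr4a3 lay between 15.6 and 19.5 CPM (median 17.0) in labelled Abca7 LPS mice and between 22.5 and 45.1 CPM (median 36.2) in unstimulated labelled Abca7 mice, without overlap (-0.999 ± 0.16, adjusted p = 5.03e-05). The 6 LPS values of Nr4a3 were close to each other, with an SD of 1.36 CPM against 7.84 CPM without LPS. Nr4a2 lay between 25.7 and 34.4 CPM (median 31.0) in labelled Abca7 LPS mice and between 37.1 and 47.2 CPM (median 40.3) in unstimulated labelled Abca7 mice, again without overlap (-0.44 ± 0.08, adjusted p = 0.000433).

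Arc lay between 62.7 and 133 CPM (median 69.1) in labelled Abca7 LPS mice and between 121 and 329 CPM (median 231) in unstimulated labelled Abca7 mice (-1.46 ± 0.22, adjusted p = 2.21e-05). Npas4 lay between 5.82 and 15.4 CPM (median 8.05) in labelled Abca7 LPS mice and between 12.8 and 33.0 CPM (median 20.5) in unstimulated labelled Abca7 mice (-1.18 ± 0.24, adjusted p = 0.00102). For both genes the overlap again involved unstimulated replicate 5, the lowest library of its group for Arc and Npas4, and LPS replicate 6 for Arc or replicate 4 for Npas4.

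**Figure D2:**
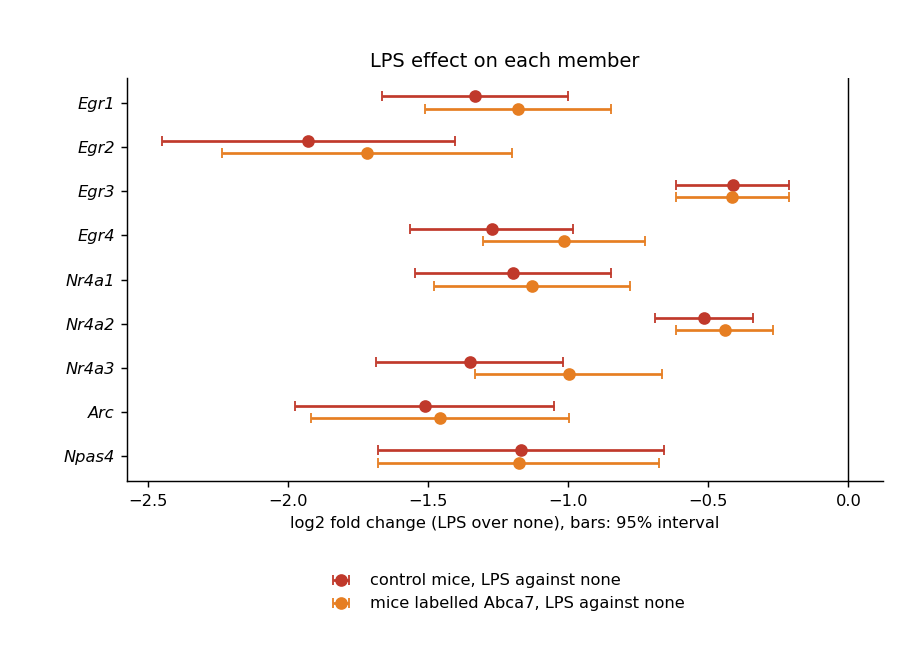
Log2 fold change (LPS over no stimulus, horizontal axis) of each member with its 95% interval, in control mice and in mice labelled Abca7, 6 libraries per group. All 18 intervals lie below 0, Egr2 is lowest at -1.93 and -1.72, and Egr3 and Nr4a2 lie nearest to 0.

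No member was called for a difference between the genotype labels. Under LPS 0% of all genes passed the threshold in edgeR, where 1748 had an unadjusted p under 0.05 and DESeq2 called 2 and limma voom 1, and without LPS 0.032% passed (7 genes, with 1426 at an unadjusted p under 0.05). The member with the largest difference was Npas4, which averaged 9.40 ± 3.71 CPM (SD, n = 6) in labelled Abca7 LPS mice and 6.95 ± 2.68 CPM in control LPS mice, a log2 difference of 0.44 ± 0.25 (SE, 95% interval -0.08 to 0.95, adjusted p = 0.685). Without LPS it averaged 21.2 ± 6.93 CPM in mice labelled Abca7 and 15.5 ± 4.25 CPM in control mice (0.45 ± 0.24, interval -0.04 to 0.94, adjusted p = 0.807). Arc averaged 83.0 ± 27.7 CPM in labelled Abca7 LPS mice and 67.1 ± 14.2 CPM in control LPS mice (0.31, interval -0.15 to 0.76), and 228 ± 67.8 against 191 ± 69.8 CPM without LPS (0.25, interval -0.20 to 0.70). Nr4a2 had the narrowest intervals, -0.15 to 0.20 around 0.03 under LPS and -0.22 to 0.13 around -0.04 without LPS, followed by Egr3 with 0.02 in both (-0.18 to 0.23 and -0.18 to 0.22).

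The size of the LPS effect was compared between the labels by the interaction term. It passed the threshold for 0 members and 0% of all genes in edgeR, with 745 genes at an unadjusted p under 0.05, and 0 genes in DESeq2 and limma voom. The largest member value was that of Nr4a3, whose fall was smaller in mice labelled Abca7 by 0.35 ± 0.23 on the log2 scale (interval -0.12 to 0.82, unadjusted p = 0.134). For Egr3 the LPS effects in the 2 genotypes differed by -0.00, with an interval from -0.29 to 0.29. The intervals of Arc (-0.59 to 0.69) and Npas4 (-0.72 to 0.71) leave room for differences in either direction at this number of mice.

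Because the members of a family fell by unequal amounts, the ratio of 2 members was formed within each library, which needs no scaling between libraries. This comparison was chosen after the fold changes were seen. Of 18 tests, 9 pairs in 2 genotypes, 14 passed a Benjamini-Hochberg adjusted exact permutation p of 0.05 (two-sided, 6 libraries against 6, smallest possible p = 0.00216). The pairs of a family share genes and libraries, so these tests are not independent and the same gene enters several of them. The log2 ratio of Egr2 to Egr3 averaged -4.46 ± 0.18 (SD) in control LPS mice and -3.02 ± 0.72 in unstimulated control mice, and the groups did not overlap (difference -1.44, adjusted exact p = 0.013). In mice labelled Abca7 it averaged -4.25 ± 0.39 with LPS and -3.02 ± 0.58 without (difference -1.22, adjusted exact p = 0.0167).

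The log2 ratio of Egr1 to Egr3 was lower under LPS, with differences of -0.94 in control and -0.74 in labelled Abca7 mice (adjusted exact p = 0.013 and 0.0173). The log2 ratio of Egr1 to Egr4 was not past the threshold, at 3.002 ± 0.14 in control LPS mice and 3.08 ± 0.08 in unstimulated control mice (adjusted exact p = 0.302, n = 6 each). The ratio of Egr2 to Egr4 was lower under LPS, with differences of -0.58 in control and -0.62 in labelled Abca7 mice (adjusted exact p = 0.0167 and 0.018). In control mice the call for Egr1 over Egr2 (0.51) was lost without control LPS replicate 1 and without control LPS replicate 2, with an adjusted exact p of up to 0.0612.

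Within the Nr4a family the log2 ratio of Nr4a1 to Nr4a2 differed by -0.67 in control and -0.68 in labelled Abca7 mice, lower under LPS (adjusted exact p = 0.0156 and 0.0177). The ratio of Nr4a2 to Nr4a3 was higher under LPS, by 0.78 and 0.53 (adjusted exact p = 0.0156 and 0.018). Between Nr4a1 and Nr4a3 the differences were 0.11 and -0.15 and passed in neither genotype (adjusted exact p = 0.528 and 0.38).

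**Figure D3:**
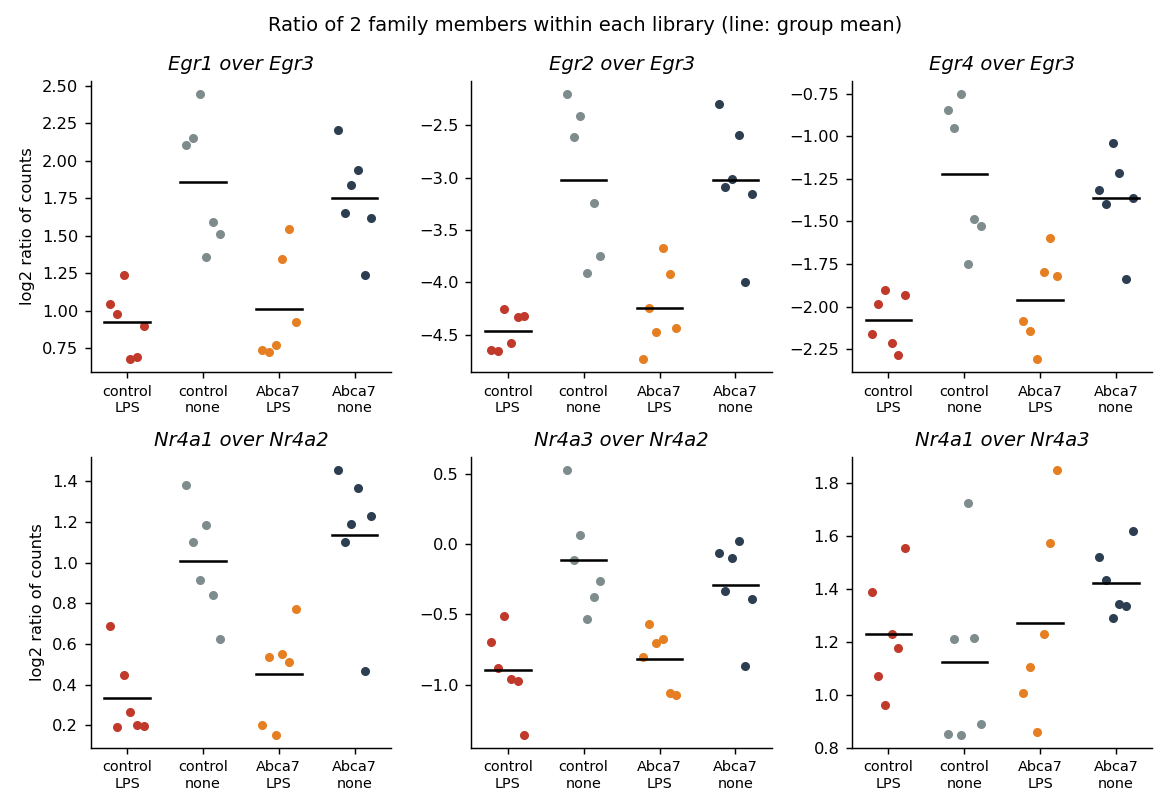
Log2 ratio of the counts of 2 family members within each library (vertical axis, unitless) for the 4 groups of 6, with group means as lines. Ratios over Egr3 and over Nr4a2 are lower in LPS libraries, and Nr4a1 over Nr4a3 shows overlapping groups.

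Levels were compared between members per length, as RPKM (CPM per kilobase of gene length). The lengths in the count table are shorter than those of GENCODE M21 for Egr3 (1416 against 4406 bases), Nr4a1 (2474 against 3509), Npas4 (3277 against 4136) and, slightly, Egr4 (2138 against 2148), and the M21 lengths were tried after the values were seen. Which length fits the counting is not known, so the place of Egr3 and Nr4a1 in the order is uncertain.

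In control LPS mice Egr3 was first by the table's length, at 36.7 ± 4.90 RPKM, and below Egr1 (22.3 ± 5.07) and Arc (21.9 ± 4.65) by the M21 length, at 11.8 ± 1.58 RPKM. Nr4a2 (7.32 ± 1.25 RPKM) stood above Egr4 (5.79 ± 1.03) in all 6 control LPS libraries, whereas Egr4 stood above Nr4a2 in all 6 unstimulated control libraries, by either set of lengths and with overlapping ranges. In mice labelled Abca7 without LPS, Arc was first by either set, at 74.6 ± 22.2 RPKM. Egr2 was last in all 4 groups by either set.

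In unstimulated control mice Arc stood at 62.5 ± 22.8 RPKM (SD, n = 6) and Egr1 at 56.2 ± 9.68, with overlapping ranges. Egr3 followed at 48.9 ± 7.13 RPKM by the table's length and 15.7 ± 2.29 by the M21 length, and Nr4a1 at 35.004 ± 6.92 and 24.7 ± 4.88. Egr3 was thus above Nr4a1 by the table's lengths and below it by those of M21. Egr4 (13.98 ± 2.69), Nr4a2 (10.5 ± 0.531), Nr4a3 (6.80 ± 2.19), Npas4 (4.74 ± 1.30) and Egr2 (2.66 ± 1.09) came after these by the table's lengths, each overlapping the next.

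Mice of 1 group varied, and the members varied together. Each library was set against the mean of its own group on the log2 CPM scale. Unstimulated control replicate 1 and unstimulated labelled Abca7 replicate 1 were above their group means for all 9 members, and so were control LPS replicate 1 and unstimulated labelled Abca7 replicate 2. Unstimulated labelled Abca7 replicate 5, control LPS replicates 2 and 4 and labelled Abca7 LPS replicate 3 were above it for 0 members. Arc, for example, had 329 CPM in unstimulated labelled Abca7 replicate 1 and 121 CPM in replicate 5 of the same group.

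Over the 24 libraries, Pearson's r between the deviations of 2 members was 0.54 to 0.90 (median 0.77) in the 21 pairs without Egr3 and Nr4a2. In the 8 pairs with Egr3 it was 0.02 to 0.43 (median 0.29), and in the other 7 pairs with Nr4a2 it was 0.28 to 0.72 (median 0.57). All points share their libraries, their scaling and the dissection, so these values are descriptions. Egr3, the member with the weakest LPS effect, was thus also the one least tied to the rest within groups. The values of Nr4a2 lay lower on the median than those of the 21 pairs, with overlapping ranges.

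**Figure D4:**
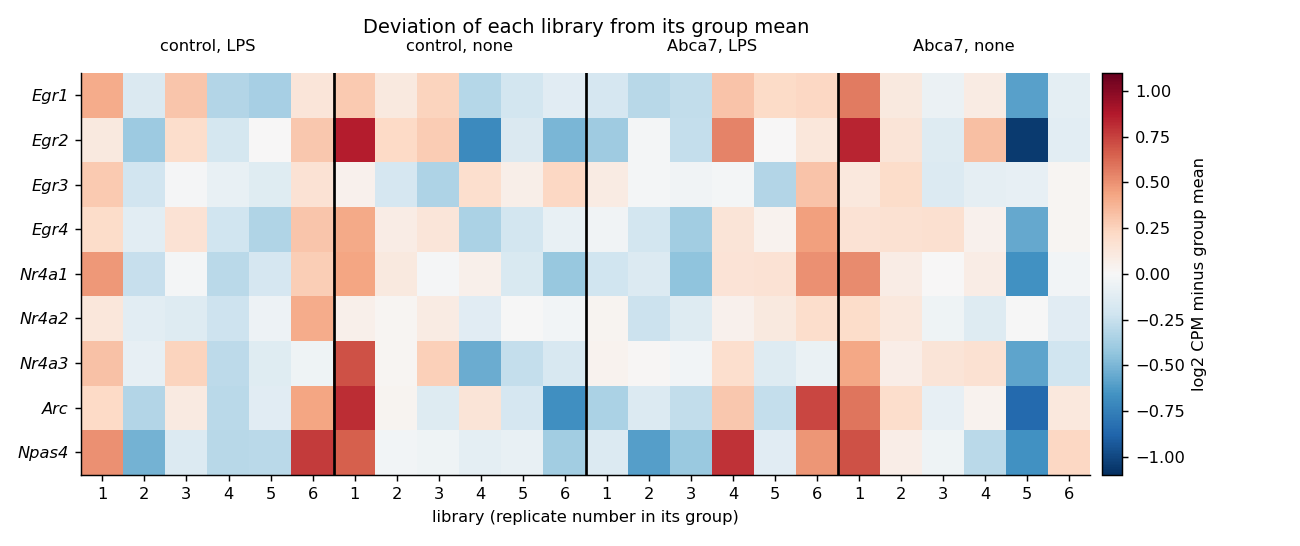
Deviation of each library from its group mean (colour, log2 CPM) for 9 members (rows) in 24 libraries (columns, by group and replicate number). Unstimulated labelled Abca7 replicate 1 is red for all 9 members and replicate 5 blue for most, and the rows of Egr3 and Nr4a2 are the palest.

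Among the genes whose deviations were most like the mean of the members, out of 14932 genes ranked (log2 CPM averaging 1 or more), were Dnajb5 (r = 0.87 over 24 libraries), Fosb (0.87), 1700016P03Rik (0.86), Ccnd2 (0.81), Dusp6 (0.79), Tnfrsf19 (0.76) and Zbtb1 (0.76). Fosb encodes an AP-1 transcription factor, Dusp6 a phosphatase of the kinase ERK, and 1700016P03Rik overlaps Mir212 and Mir132 and 1 further gene in GENCODE M21, so its counts may hold their precursor. In control mice Dusp6 fell under LPS by 0.77 ± 0.07 on the log2 scale (adjusted p = 5.4e-09), Dnajb5 by 0.48 ± 0.06 (adjusted p = 1.49e-06) and 1700016P03Rik by 0.49 ± 0.12 (adjusted p = 0.00446). Zbtb1 changed by -0.09 ± 0.05 and was not called (adjusted p = 0.295). The likeness was computed on deviations within groups, in which the LPS effect has been removed.

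The other genes of the activity response did not move as a block. Of 32 other rapid activity genes, 11 rose and 10 fell in control LPS mice (median -0.10), and 8 rose and 9 fell in labelled Abca7 LPS mice. Atf3, a stress-induced factor of the ATF family, rose the most, by 3.25 ± 0.33 in control and 3.31 ± 0.34 in labelled Abca7 mice (adjusted p = 1.52e-08 and 2.82e-08). Maff, a small Maf protein, rose by 2.57 ± 0.22 in control and 2.47 ± 0.22 in labelled Abca7 mice. The growth arrest gene Gadd45g (1.27 ± 0.11 in control mice), the ADP-ribosyltransferase gene Tiparp (0.94 ± 0.10) and the matrix protein gene Cyr61 (0.92 ± 0.24) rose in control mice. Gadd45g and Tiparp also rose in labelled Abca7 mice, and Cyr61 there had 0.17 ± 0.23 (adjusted p = 0.744), a difference between genotypes that was not called. Cyr61 passed there without unstimulated labelled Abca7 replicate 1 (0.55) or with age in the model (0.63). The zinc finger gene Klf4, which endothelial cells also express, fell by 1.29 ± 0.14 in control and changed by -1.4998 ± 0.14 in labelled Abca7 mice.

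Fos, the most used activity marker, was looked at after its value was seen. It averaged 21.9 ± 2.91 CPM (SD, n = 6) in control LPS mice and 24.6 ± 10.8 CPM in unstimulated control mice (log2 fold change -0.17 ± 0.23 SE, adjusted p = 0.678). In labelled Abca7 mice it averaged 18.9 ± 2.77 CPM with LPS and 27.3 ± 11.1 CPM without (-0.53 ± 0.23, adjusted p = 0.152). The unstimulated libraries spread widely, from 14.8 to 44.8 CPM in control mice, and enclosed all the control LPS values.

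Delayed activity genes, which encode secreted factors, synaptic proteins and signalling regulators, fell more often than they rose. Of 20 such genes 3 rose and 11 fell in control LPS mice (median -0.30), and 3 rose and 10 fell in labelled Abca7 LPS mice. With the Ttr level in the model the number that fell in control mice was 3, Bdnf, Dusp4 and Rgs2. In labelled Abca7 mice all 10 were still called lower in that model, and Rheb was added (-0.13, adjusted p = 0.0215). Bdnf, the gene of a neurotrophin, fell by 0.74 ± 0.10 in control and by 0.79 ± 0.10 in labelled Abca7 mice (adjusted p = 2.1e-06 and 1.16e-06), and the phosphatase genes Dusp4 and Dusp14 fell by 0.81 ± 0.11 and 0.52 ± 0.11 in control mice. The call for Dusp14 was lost with the Ttr level in the model. The 3 that rose were Ptgs2, the gene of cyclooxygenase 2 (2.21 ± 0.19 in control mice), Pim1, a kinase gene induced by cytokines (1.63 ± 0.16), and Errfi1, the gene of an EGF receptor inhibitor (1.42 ± 0.11), each of which also responds to inflammatory signals in other cells.

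Some partners and upstream regulators were called, where 17.3% of all genes were called in control mice and 11.8% in mice labelled Abca7. Of 10 partners and co-regulators, 1 rose and 2 fell in control LPS mice, Rxra (0.16 ± 0.05, adjusted p = 0.0393), Rxrg (-0.38 ± 0.08) and Nab2 (-0.35 ± 0.10, adjusted p = 0.0152). Rxrg fell in labelled Abca7 mice too (-0.41 ± 0.08). The retinoid X receptors encoded by Rxra and Rxrg pair with NR4A1 and NR4A2, and NAB2 holds back some of the EGR proteins. The call for Nab2 was lost without unstimulated control replicate 1, and that for Rxra was lost under 9 alternatives, 7 of them with 1 library left out. Of 21 upstream regulators 2 rose and 5 fell in control mice, among them Srf (-0.40 ± 0.05, adjusted p = 5.81e-07), which encodes the factor that binds the CArG box, its partner gene Elk3 (-0.65 ± 0.10) and the kinase gene Rps6ka1 (-0.36 ± 0.09). The SRF coactivator gene Mkl1 (0.33 ± 0.07) and the kinase gene Rps6ka5 (0.23 ± 0.05) rose, and the coactivator gene Ep300 fell by 0.17 ± 0.04. The call for Rps6ka5 in control mice was lost with the Ttr level in the model. In labelled Abca7 mice 2 rose and 4 fell, Srf by 0.30 ± 0.05. Of the 21 genes named from these lists 12 overlap another annotated gene, Bdnf, Srf, Elk3, Nab2, Atf3 and Ep300 among them. Whether reads of the other gene entered their counts was not tested.

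**Figure D5:**
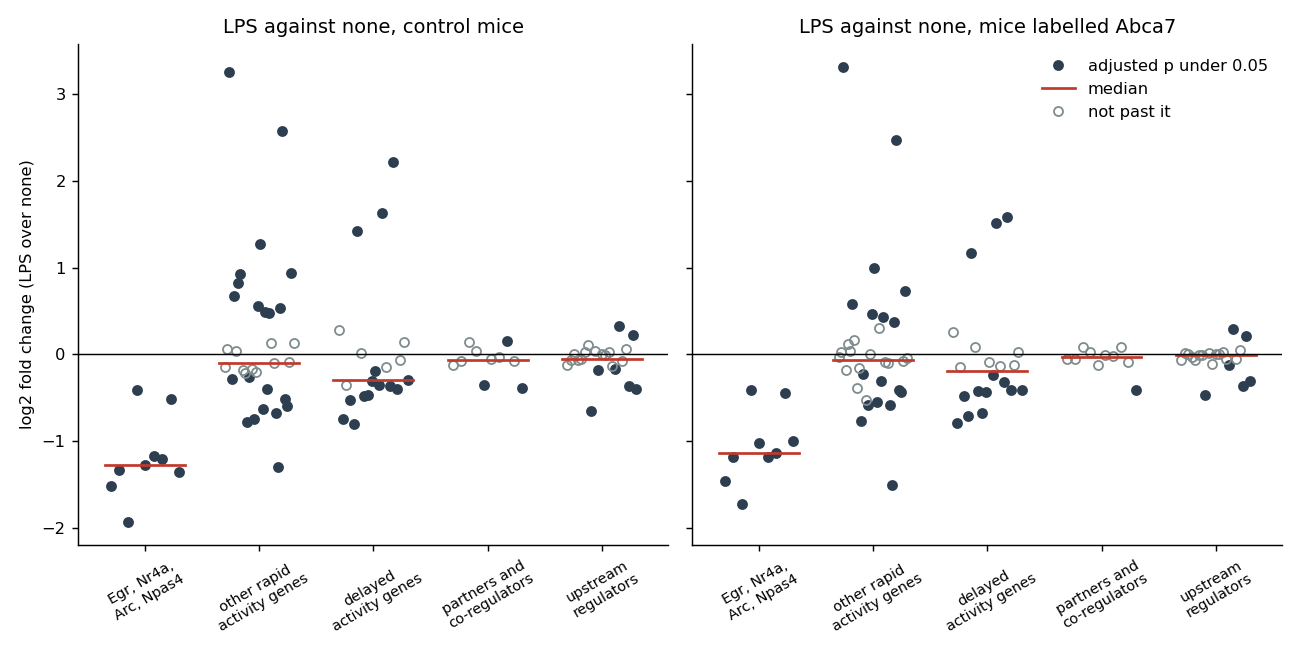
Log2 fold change (LPS over no stimulus, vertical axis) of the 9 members and of 4 other gene lists in control mice and mice labelled Abca7. Filled points passed an adjusted p of 0.05 and red lines are medians. The members all lie below 0, and the other lists spread to both sides of 0.

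Markers of the cells in the tissue moved with the stimulus, and their part in the member results was not tested. All 20 proinflammatory genes, a list chosen with earlier results of these data known, rose in LPS mice of both genotypes. Over all genes 9.39% were called higher in control mice and 6.65% in mice labelled Abca7, and 7.92% and 5.18% were called lower. Of 6 excitatory neuron markers, 2 fell in control LPS mice and 1 in labelled Abca7 LPS mice, and their summed level was 3623 to 4548 CPM in control LPS mice and 3788 to 4623 CPM in unstimulated control mice. Their mean log2 CPM was lower by 0.27 in control LPS mice and by 0.17 in labelled Abca7 LPS mice (exact permutation p = 0.0195 and 0.0238, n = 6 per group). No inhibitory neuron marker of 6 and no upper-layer marker of 5 was called. The upper-layer markers summed to 475 to 578 CPM in control LPS mice and 482 to 588 CPM in unstimulated control mice. Of 5 deep-layer markers, 2 fell in control and 1 in labelled Abca7 mice. Their mean log2 CPM was lower by 0.12 in control LPS mice and by 0.08 in labelled Abca7 LPS mice (exact permutation p = 0.00866 and 0.0195).

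Microglial markers summed to 175 to 192 CPM in control LPS mice and 242 to 255 CPM in unstimulated control mice, and endothelial markers to 108 to 117 CPM against 153 to 166 CPM. Neither pair of ranges overlapped. In mice labelled Abca7 the sums were 177 to 206 CPM with LPS and 243 to 261 CPM without for microglia, and 102 to 114 CPM against 146 to 171 CPM for endothelium. Members of both lists differed in direction. Of the 5 endothelial markers 4 fell in each genotype, and Cdh5 rose by 1.41 ± 0.12 in control and 1.13 ± 0.12 in labelled Abca7 mice. Of the 6 microglial markers 5 fell in each genotype, and C1qa had 0.16 ± 0.06 in control mice (adjusted p = 0.0536) and rose by 0.25 ± 0.06 in labelled Abca7 mice. Choroid plexus markers summed to 188 to 543 CPM in control LPS mice and 13.6 to 297 CPM in unstimulated control mice (exact permutation p = 0.0108 for the mean log2 CPM), and to 35.9 to 429 CPM against 59.7 to 496 CPM in mice labelled Abca7 (exact permutation p = 0.515). Unstimulated control replicate 1, the library highest of its group for Npas4, Arc, Egr1, Egr2, Egr4, Nr4a1 and Nr4a3, was the one with the 297 CPM, while the other 5 held at most 31.8 CPM. Thalamus markers had a mean log2 CPM higher by 0.69 in control LPS mice and by 0.59 in labelled Abca7 LPS mice (exact permutation p = 0.0411 and 0.113), and 1 of 5, Tcf7l2, was called, in control mice. Striatum markers summed to 570 to 698 CPM in control LPS mice and 584 to 745 CPM in unstimulated control mice. Their mean log2 CPM was lower by 0.13 in control LPS mice and by 0.12 in labelled Abca7 LPS mice (exact permutation p = 0.102 and 0.0455). Of 6 striatum markers, 2 fell in control and 1 in labelled Abca7 mice. Astrocyte markers had a mean log2 CPM higher by 0.11 and 0.07 (exact permutation p = 0.00216 and 0.039), with 3 of 5 called in control and 1 of 5 in labelled Abca7 mice. In control mice Slc1a2 (-0.08 ± 0.07) and Slc1a3 (-0.03 ± 0.04) had the opposite sign and were not called. The astrocyte sums overlapped, at 3339 to 3964 CPM in control LPS mice and 3293 to 3819 CPM in unstimulated control mice.

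The unstimulated mice were on average older, so the LPS effect was also read within mice of 1 age. At 56 days in control mice (3 LPS and 3 unstimulated) the difference in mean log2 CPM was -1.84 for Egr1, -2.49 for Egr2, -1.62 for Nr4a1, -1.95 for Arc and -1.77 for Npas4. At 55 days (2 and 2) it was -0.91, -1.31, -0.53, -0.71 and -0.33 for the same genes, in the same direction and closer to 0. Egr3 had -0.39 and -0.33 at 56 and 55 days. In mice labelled Abca7 the differences were -1.34 for Egr1, -1.70 for Egr2 and -1.61 for Arc at 56 days (2 and 1), and -0.97, -1.69 and -1.34 at 55 days (2 and 3). All 9 members were lower under LPS at each age and genotype, and these small groups were given no test.

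Whether mice with more inflammation had less of the members was asked among the 12 LPS mice, with both measures as deviations from the group mean. Of 9 relations with the mean log2 CPM of the 20 proinflammatory genes, 0 passed after Benjamini-Hochberg adjustment. The strongest was that of Npas4 (Pearson's r = -0.60, permutation p = 0.0322, adjusted p = 0.29; Spearman's rho = -0.45, permutation p = 0.152), followed by Egr2 (r = -0.59, permutation p = 0.0943, adjusted p = 0.424; rho = -0.41, permutation p = 0.173). Labelled Abca7 LPS replicates 4 and 6 lie farthest from the median of the proinflammatory level. Without them r was -0.02 for Npas4 and 0.30 for Egr2, so the relation rests on those mice. Without replicate 4 alone r was -0.35 for Npas4 and -0.03 for Egr2. Within the control LPS group r was -0.06 for Npas4, 0.15 for Egr2 and 0.775 for Nr4a3. Within the labelled Abca7 LPS group r was -0.85, -0.82 and -0.81 for the same genes. In each group 0 members passed after adjustment. Labelled Abca7 LPS replicate 4 had 15.4 CPM of Npas4 and 4.04 CPM of Egr2, the highest values of its group, and a proinflammatory level of 0.88 where the other 11 LPS mice had 2.83 to 3.92.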

How the data were processed

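Cortical RNA was sequenced on an Illumina HiSeq and counted with the MAP-RSeq pipeline, per the series text. The submitters' processing notes name STAR 2.5.2b and the build mm10. The authors deposited a table of unnormalized counts for 43346 genes, with a gene length per row that is used here for RPKM. No annotation release or strand setting is stated in the sources used here, and coordinates are those of mm10. Totals were 48149131 to 75741388 counts per library. The replicate numbers name libraries in accession order, and titles carry 1 number per library, taken as 1 animal each. P-values of group differences weigh them against the spread between these libraries.

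Genes were filtered with filterByExpr, scaled with TMM factors and fitted over all 24 libraries with 1 coefficient per group in edgeR 4.0.16 (R 4.3.3). Two-sided quasi-likelihood F tests were adjusted by Benjamini-Hochberg over 21891 genes, with a threshold of 0.05. The standard error is the fold change divided by the root of F. Log2 CPM used a prior count of 2. The relation among LPS mice used 100000 permutations within groups. The code was tested on simulated data. Alternatives were DESeq2 1.42.0, limma voom 3.58.1, RLE scaling, 2 other filters, age or Ttr as a covariate, M21 gene lengths, and each library left out.

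Members and gene lists were chosen with earlier results of these data known. All members are named, and of each list up to 6 called genes with the largest change in control mice, with Fos added after its value was seen. The likeness rule takes the 8 genes with the highest r with the mean scaled deviation of the members, of which 7 are named and 1 is not reported here.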

Additional observations from a re-analysis of the deposited data

Results flagged for a closer look

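Of 40 groups of 6 libraries examined for a library far from the rest, 3 held such a library, and chance alone marks about 1 in 20. Egr4 was 4.21 log2 CPM in unstimulated labelled Abca7 replicate 5, the lowest of its group, where the other 5 had 4.80 to 4.95. That library was below the group mean for all 9 members. Npas4 was 4.58 log2 CPM in unstimulated control replicate 1, the highest of its group, where the other 5 had 3.54 to 3.89. This is the library with the high choroid plexus level. The proinflammatory genes averaged 0.88 log2 CPM in labelled Abca7 LPS replicate 4, the lowest of its group, where the other 5 had 2.83 to 3.92.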

How the results depend on the processing

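For the LPS effects on the 9 members in both genotypes, 557 of 558 values over 31 alternatives kept their direction and their side of the threshold. The exception was Egr3 in control mice with the Ttr level as a covariate (-0.29, adjusted p = 0.243). Over all genes, the LPS calls in control mice were 3790 and became 1626 with the Ttr level. Genotype calls under LPS were 0 and became 2 with age as a factor, 1 with limma voom, 2 with DESeq2 and 0 to 1 with a library left out (1 without control LPS replicate 4). Genotype calls without LPS were 7 and became 49 with age, 3 with the Ttr level, 31 with DESeq2 and 2 to 38 with a library left out (38 without unstimulated control replicate 1, 19 without unstimulated labelled Abca7 replicate 1, and 2 to 4 without each of 9 other unstimulated libraries). Interaction calls were 0, and 0 to 7 with a library left out (7 without unstimulated control replicate 1). The cause was not tested. No member was called for genotype or interaction under these alternatives. No paired analysis was possible because replicate numbers only name libraries. Each member value rests on 99 reads or more, and the part of counting error in the spread between mice was not tested.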

Other observations

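Of the 11 delayed activity genes called lower in control LPS mice, the naming rule left out 8, given here after their values were seen. In control mice Homer1, the gene of a postsynaptic scaffold, changed by -0.47 ± 0.08 (adjusted p = 9.18e-05), the neuropeptide precursor gene Vgf by -0.30 ± 0.05 (adjusted p = 9.06e-05), the prohormone convertase gene Pcsk1 by -0.36 ± 0.08 (adjusted p = 0.0011) and Inhba, which encodes a subunit of activin A, by -0.46 ± 0.14 (adjusted p = 0.025), all by edgeR. With the Ttr level in the model these 4 calls in control mice were lost (adjusted p = 0.104, 0.0836, 0.197 and 0.428). In mice labelled Abca7 the changes were -0.42 ± 0.08, -0.41 ± 0.05, -0.24 ± 0.08 and -0.67 ± 0.14 for the same genes, each past the threshold with and without the Ttr level. The calls for Nptx2, Plk3 and Nrn1 in control mice were also lost with the Ttr level, and that for Rgs2 (-0.40 ± 0.06) was kept. Nrn1 was not called in mice labelled Abca7 (-0.08 ± 0.06, adjusted p = 0.427).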
